A study of Mus musculus with 3 samples.

Results

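Transcripts of 10 genes of the bone morphogenetic protein (BMP), transforming growth factor-beta (TGF-beta) and activin pathways were followed across the stroma of the aged mouse thymus. The genes were given by name, out of 32293 features counted (8 of them transgene sequences): the BMP ligands Bmp2, Bmp4, Bmp6 and Bmp7, the TGF-beta ligands Tgfb1, Tgfb2 and Tgfb3, the activin A subunit gene Inhba, and the secreted inhibitors Fst and Grem1. All 10 were found in the feature list and all 10 passed the filter on low counts in the comparison of cell classes. The material was CD45- thymic stroma of untreated 20-month-old C57BL/6 mice, sorted and captured as single cells. There were 3 libraries, each the sole library of its group (n = 1): Foxn1Lin female, Foxn1Lin male and wild type male. Foxn1Lin mice carry a Foxn1 lineage trace, in which Cre under the Foxn1 promoter, active in thymic epithelium, switches on the tdTomato reporter in Foxn1-expressing cells and their progeny. The thymi of several mice were pooled for each library, so no library shows how single mice vary. The protocol names female mice for all 3 libraries although the labels call 2 of them male, and for wild type male the title says CD45- where the cell type label says CD45-PECAM1+. That library held epithelial, fibroblast and mural barcodes beside endothelial ones. Values of the 3 libraries are always given in the order Foxn1Lin female, Foxn1Lin male, wild type male, and mesothelial values in the order Foxn1Lin female, wild type male.

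BMPs, TGF-betas and activins are dimeric secreted factors that bind pairs of type I and type II receptor kinases and act through SMAD transcription factors, with SMAD1 and its relatives downstream of BMPs and SMAD2 and SMAD3 downstream of TGF-beta and activin. Their reach is set outside the cell: follistatin (Fst) binds activin tightly and some BMPs more weakly, gremlin 1 (Grem1) binds BMP2, BMP4 and BMP7, and TGF-betas are secreted in a latent form that has to be released. In the thymus, BMP4 from fibroblasts and endothelium is known as a signal that maintains Foxn1 in epithelium and supports repair after injury.

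Barcodes were put in a class by counts of unique molecular identifiers (UMIs, each marking 1 captured molecule): thymic epithelial cells (TEC) by at least 2 UMIs of Epcam, endothelial cells (EC) by 2 of Pecam1, fibroblasts (FB) by 2 of Pdgfra, mural cells (smooth muscle cells and pericytes) by 5 of Rgs5 and Acta2 together, and mesothelial cells by 2 of Upk3b. Of 8616, 3583 and 5478 called barcodes, TEC took 467, 430 and 878, EC 1883, 823 and 862, FB 1852, 864 and 1709, mural cells 427, 449 and 353, and mesothelial cells 340, 0 and 36. Barcodes that met 2 rules (594, 174 and 445) were left out of every class. Foxn1Lin male held no mesothelial barcode, so each mesothelial value rests on 2 libraries. Libraries shared 3 to 14 called barcode sequences in pairs. Every class carried the markers of its name: the 6 TEC markers summed to 6921 to 8633 CPM (a gene's UMIs per 1e6 UMIs of the class) in TEC and to 93.2 to 1168 in the other classes. The 6 FB markers reached 13206 to 16251 CPM in FB but also 8782 and 9429 in mesothelial cells. The 6 hematopoietic markers summed to 372 to 649 CPM in TEC and to at most 163 in the other classes. Parathyroid markers stood at 2098 to 4161 CPM in TEC, nearly all of it Pth in few barcodes: 6, 3 and 1 TEC barcodes held 96.3%, 99.8% and 99.7% of the Pth UMIs of the class.

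By mean level over the libraries (CPM of the summed class), EC led for Bmp6 and Tgfb1, mural cells for Bmp2, Tgfb3 and Inhba, FB for Bmp4 and Tgfb2, and TEC for Bmp7, Fst and Grem1. The leader was the same in 3 of 3 libraries for Bmp2, Bmp6, Bmp7, Tgfb1 and Tgfb3 and in 2 of 3 for the other 5 genes. For Bmp4, Foxn1Lin female was led by mesothelial cells and Foxn1Lin male held none, so FB led mesothelial cells in 1 of the 2 libraries with both. Raw counts summed per class and library were compared between classes with the library as a block (edgeR's quasi-likelihood test with Benjamini-Hochberg adjustment over 17598 genes, 14 sums). Being higher in 1 class than in each of the other 4 passed for 3 of the 10 genes, beside 28.1% of all genes tested: Bmp6 and Tgfb1 in EC (7.23% of all genes) and Bmp2 in mural cells (4.38%). It passed for 0 genes in TEC (10.7%), 0 in FB (2.68%) and 0 in mesothelial cells (3.16%). The Bmp2 call in mural cells was lost in 6 of 13 alternatives, among them without Foxn1Lin male and without wild type male, while both EC calls held in all 13. Droplets without a cell, which hold free RNA, gave a background level for each gene, printed with that gene below.

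**Figure D1:**
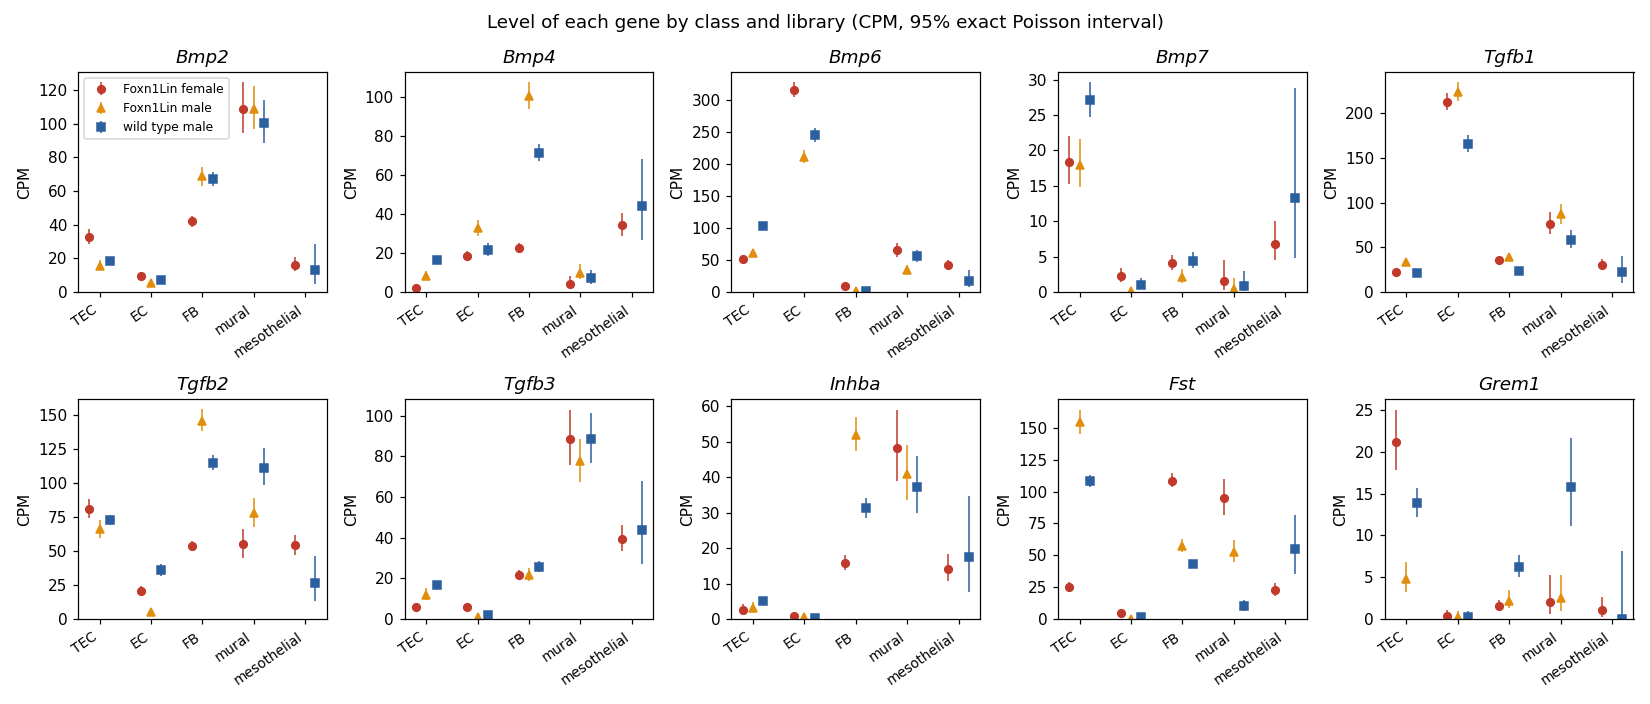
CPM of each gene (vertical axes, each from 0, own scale) in the 5 classes (horizontal axes), 1 point per library with its 95% exact Poisson interval, which covers counting error only. Bmp6 and Tgfb1 stand highest in EC and Bmp2 and Tgfb3 in mural cells in all 3 libraries, whereas the 3 libraries do not share an order for Fst.

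Level and amount gave different answers, because the classes differ in size. Of all Bmp2 UMIs in called barcodes, FB held 35.9%, 41.7% and 44.5%, against 12.6%, 21.1% and 10.6% in the mural cells that led by level. Inhba likewise had 39.1%, 60.4% and 58.7% of its UMIs in FB. Tgfb3, led by mural cells in level, had 27.9%, 30.0% and 31.1% in FB and 15.4%, 34.2% and 16.9% in mural cells. For Bmp6, the share in EC was 52.6% and 62.1% in the Foxn1Lin libraries, while in wild type male TEC held 35.3% and EC 34.5%. Tgfb1 had 45.0% to 56.7% of its UMIs in EC and Bmp4 had 35.6% to 61.4% in FB. The sort and capture decide how many cells of each class were loaded, so these shares describe the libraries and not the organ.

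**Figure D2:**
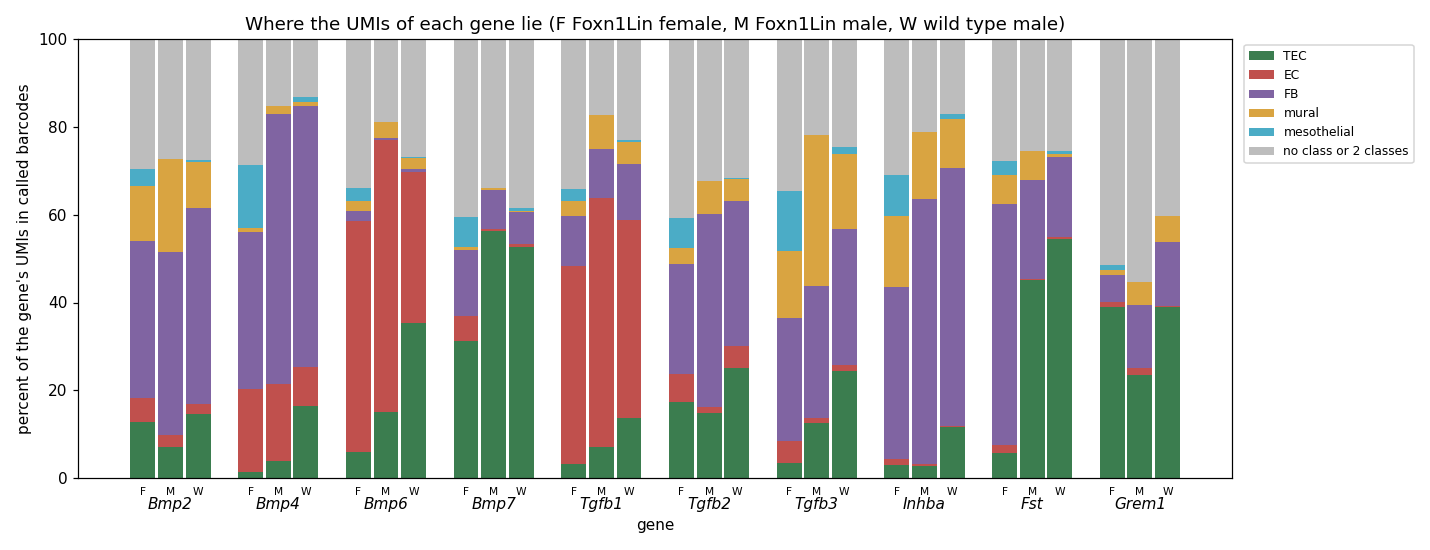
Percent of each gene's UMIs in called barcodes (vertical axis) that lie in each class, 1 bar per gene and library, with barcodes of no class or of 2 classes in grey. FB hold 35.9% to 44.5% of Bmp2 UMIs, EC 45.0% to 56.7% of Tgfb1 UMIs and TEC 23.5% to 39.0% of Grem1 UMIs, of which barcodes of 2 classes hold 28.8% to 38.1%.

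Among the BMP ligands, Bmp2 (ENSMUSG00000027358, chr2:133552159-133562885, plus strand; all gene positions are GENCODE vM21 on GRCm38) was most abundant in mural cells. Its level there was 109, 109 and 100.4 CPM. In FB it was 41.9, 68.6 and 66.9 CPM, and the ranges of both classes did not overlap. The difference was 0.81 ± 0.28 (log2, SE, adjusted p = 0.0491), close to the threshold, and FB exceeded TEC by 1.80 ± 0.29 (adjusted p = 3.5e-04). Levels were lowest in EC, at 9.72, 5.12 and 6.96 CPM. Droplets without a cell held 21.8, 32.7 and 33.4 CPM of Bmp2, above EC and mesothelial cells in every library and above TEC in the male libraries.

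Bmp4 (ENSMUSG00000021835, chr14:46383520-46390669, minus strand), the ligand with the best known role in thymic repair, was mainly a fibroblast transcript in the male libraries. FB held 22.4, 100.6 and 71.4 CPM. Mesothelial cells held 34.1 CPM in Foxn1Lin female, above FB there, and 44.0 in wild type male. The test did not separate FB from mesothelial cells (FB minus mesothelial 0.20 ± 0.50, adjusted p = 0.849). EC followed with 18.3, 32.6 and 21.5 CPM, lower than FB by 1.17 ± 0.40 (adjusted p = 0.0385) and higher than TEC by 1.92 ± 0.43 (adjusted p = 0.0031). The difference between EC and FB no longer passed in 4 of 13 alternatives, among them those without Foxn1Lin male or without wild type male. TEC, whose Bmp4 was 2.00, 8.38 and 16.5 CPM, and mural cells, at 4.15, 9.84 and 7.06, lay at the bottom. Droplets without a cell held 6.38, 25.8 and 22.4 CPM of Bmp4, so that EC were above this background in the Foxn1Lin libraries, only slightly so in Foxn1Lin male, and below it in wild type male.

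Bmp6 (ENSMUSG00000039004, chr13:38345107-38500302, plus strand), best known as the endothelial BMP that tells hepatocytes how much iron is stored, was highest in EC. They held 316, 211 and 245 CPM. After every barcode was thinned to 2000 UMIs, 38.2%, 26.4% and 28.2% of EC still had a Bmp6 UMI, against 1.87%, 0.232% and 0.475% of FB, the class with the least (median depth 3854, 7355 and 6955 UMIs in EC and 7393, 9388 and 8229 in FB). Thinning left out 301, 30 and 45 shallower EC and 32, 3 and 24 FB, and without it the shares were 53.3%, 46.8% and 45.9% of EC and 4.37%, 1.04% and 1.46% of FB. TEC came next with 51.0, 60.2 and 103 CPM, lower than EC by 2.15 ± 0.45 (adjusted p = 0.0021) and not separable from mural cells at 64.8, 33.9 and 56.0 CPM (0.26 ± 0.46, adjusted p = 0.661). The background in droplets without a cell was 61.4, 36.2 and 51.4 CPM of Bmp6, about the level of mural cells in all 3 libraries and above that of TEC in Foxn1Lin female. The gap between EC and FB, 6.07 ± 0.56 on the log2 scale, was the widest of any class pair for these genes (adjusted p = 1.09e-05).

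Bmp7 (ENSMUSG00000008999, chr2:172868012-172940321, minus strand), a partner of other BMPs in heterodimers and a common epithelial ligand, was highest in TEC. TEC held 18.4, 18.0 and 27.1 CPM. The next class was mesothelial with 6.82 and 13.2 CPM, a difference that missed the threshold (1.40 ± 0.55, adjusted p = 0.0672). FB held 2.09 to 4.40 CPM, EC 0.131 to 2.24 and mural cells 0.364 to 1.56, each lower than TEC (2.34 to 4.34 on the log2 scale, adjusted p at most 5.72e-04). With each barcode thinned, shares in TEC were 2.88%, 3.17% and 4.12%, and at most 0.292% in mural cells (18.2%, 19.5% and 30.4% of TEC and at most 0.567% of mural cells without thinning). The level of Bmp7 in droplets without a cell was 10.7 and 13.4 CPM in the Foxn1Lin libraries and 14.002 in wild type male, and no other class exceeded it in its own library.

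Of the TGF-betas, Tgfb1 (ENSMUSG00000002603, chr7:25687002-25705077, plus strand), the isoform most associated with immune regulation and matrix deposition, followed the vessels. EC held 213, 224 and 166 CPM. Mural cells were second with 76.2, 86.7 and 58.5 CPM, lower than EC by 1.51 ± 0.14 (adjusted p = 1.5e-05) and higher than FB by 1.17 ± 0.14 (adjusted p = 1.47e-04). FB, mesothelial cells and TEC followed at 20.8 to 38.9 CPM. For Tgfb1 the background in droplets without a cell was 70.3, 80.8 and 31.5 CPM, close to mural cells in the Foxn1Lin libraries. It was above FB, mesothelial cells and TEC in every library that held them. The differences of Tgfb1 between classes had the smallest errors of the 10 genes. Tgfb1 is also made by blood cells, and 119, 29 and 41 barcodes of no class that carried Ptprc held 73.8, 96.3 and 126 CPM, under EC in every library. Leaving out class barcodes with a Ptprc UMI kept both differences.

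Tgfb2 (ENSMUSG00000039239, chr1:186622792-186705989, minus strand), the isoform of developing mesenchyme and epithelium, was the least restricted. FB held 53.6, 146 and 115 CPM, mural cells 55.0, 78.0 and 111, TEC 80.8, 66.1 and 72.7, and mesothelial cells 54.3 and 26.4. No pair of neighbors in the order of mean levels passed the test. EC, with 21.0, 5.25 and 36.1 CPM, were lower than FB by 2.36 ± 0.58 (adjusted p = 0.0071), than mural cells by 1.96 ± 0.57 and than TEC by 1.53 ± 0.56 (adjusted p = 0.0195 and 0.036). The last 2 were lost without Foxn1Lin male and without wild type male. EC lay below droplets without a cell, which held 26.1, 48.7 and 54.7 CPM of Tgfb2.

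Tgfb3 (ENSMUSG00000021253, chr12:86056745-86079041, minus strand), known from palate fusion and smooth muscle, had its highest level in mural cells. Mural cells held 88.7, 77.6 and 88.4 CPM, above all other classes of the same library. Mesothelial cells were second at 39.3 and 44.0 CPM, a difference that missed the threshold (1.20 ± 0.51, adjusted p = 0.109) but passed without Foxn1Lin female (1.34 ± 0.33, adjusted p = 0.026). That fit has 1 mesothelial sum, of 36 barcodes, which is assumed to vary like the other classes. FB held 21.7, 21.7 and 25.7 CPM, 1.87 ± 0.41 below mural cells (adjusted p = 0.0059), a call that was lost without wild type male. EC were at 6.09, 1.05 and 2.27 CPM, under the 14.3, 10.1 and 19.4 CPM of droplets without a cell. After thinning, 10.5% to 13.99% of mural barcodes had a Tgfb3 UMI, against 0.632%, 0.126% and 0.857% of EC (median depth 4050, 5473 and 5948 UMIs in mural cells), and without thinning 25.2% to 29.2% of mural cells and 0.972% to 2.87% of EC.

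Inhba (ENSMUSG00000041324, chr13:16011851-16031621, plus strand), whose dimer is activin A, was shared by mural cells and FB. Mural cells held 48.2, 40.8 and 37.4 CPM and FB 15.9, 52.0 and 31.2. The direction between them depended on the library, and the difference was 0.43 ± 0.36 (adjusted p = 0.423). TEC, at 2.61, 3.10 and 5.21 CPM, were lower than both (log2 differences -3.79 ± 0.41 from mural cells and -3.36 ± 0.40 from FB, adjusted p = 3.29e-05 and 4.53e-05). EC were at 0.961, 0.525 and 0.268 CPM, from 9, 4 and 2 UMIs. Both TEC and EC lay below the 4.93, 11.3 and 12.9 CPM in droplets without a cell.

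Fst (ENSMUSG00000021765, chr13:114452290-114458951, minus strand), the gene of the activin antagonist follistatin, had a different leading class in different libraries. TEC held 25.03, 154 and 108 CPM, FB 109, 57.6 and 43.2, and mural cells 94.9, 52.8 and 10.4. In Foxn1Lin female, TEC stood at the level of droplets without a cell (26.4 CPM), in the male libraries above it (55.5 and 48.5 CPM). FB and mural cells were well above it in Foxn1Lin female, but in Foxn1Lin male FB stood near it and mural cells below it, and in wild type male both lay below it. Neither TEC and FB nor FB and mural cells differed by the test (TEC minus FB 0.31 ± 0.77, adjusted p = 0.76). All 3 exceeded EC, at 5.13, 0.394 and 1.87 CPM, by 4.21 to 5.04 on the log2 scale (adjusted p at most 0.0052), although the call for mural cells was lost without Foxn1Lin male. Each of the 3 classes held subsets rich and poor in Fst, given with the subsets.

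Grem1 (ENSMUSG00000074934, chr2:113746164-113758646, minus strand), the BMP antagonist gene, had the fewest UMIs of the 10 genes, 132 to 651 UMIs in all called barcodes of a library. TEC held 21.2, 4.81 and 13.9 CPM. Droplets without a cell held 7.20, 7.43 and 11.04 CPM, more than TEC in Foxn1Lin male and only slightly less in wild type male. Mural cells held 2.07, 2.55 and 15.8, but the last value was 38 UMIs in 1 barcode, the sole positive mural barcode of wild type male. In TEC of the same library, 155 of 253 UMIs (61.3%) also sat in 1 barcode, and only 35 of 878 TEC barcodes had any. TEC minus mural was 0.81 ± 0.62 (adjusted p = 0.305) with all barcodes and 4.33 ± 1.13 (adjusted p = 0.0086) once the highest barcode of each class and library was left out, an alternative chosen after these values were seen. TEC were higher than FB by 1.75 ± 0.59 (adjusted p = 0.0255), and this call was lost under that alternative and in 4 of the other 12, among them without Foxn1Lin female and without Foxn1Lin male.

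Read by class pair, all 10 genes differed between TEC and EC, where 56.3% of all genes did, and between EC and FB (39.7%). EC and mural cells differed in 9 (37.3%) and EC and mesothelial cells in 6 (34.5%). The other pairs gave 8 for TEC and FB (55%), 5 for TEC and mural cells (48.7%), 4 for TEC and mesothelial cells (37.9%), 6 for FB and mural cells (28.4%), 2 for FB and mesothelial cells (21.5%) and 4 for mural and mesothelial cells (26.8%). In the pairs with EC, 8 of 10 genes were lower in EC than in FB, with Bmp6 and Tgfb1 as the exceptions. Without wild type male the counts fell to 6 for TEC and EC, 2 for TEC and mesothelial cells, 3 for FB and mural cells and 0 for FB and mesothelial cells. Among 64 such calls, 37 passed in all 13 alternatives and none turned its direction.

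Each class was then divided by a second marker count, with barcodes that met 2 of the rules left out: TEC by Psmb11 (cortical), Aire, Ccl21a (both medullary) or Cldn3 (a marker of age-associated TEC in the study), EC by Selp (venous), Gja5 or Sema3g (arterial) or Gpihbp1 (capillary), FB by Pi16, Inmt or Ptn, and mural cells by Kcnj8 or Abcc9 (pericytes) or Myh11 (smooth muscle). A subset is named here by its marker. Each was compared with the mean of the other subsets of its class, Kcnj8 with Myh11 mural cells directly.

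**Figure D3:**
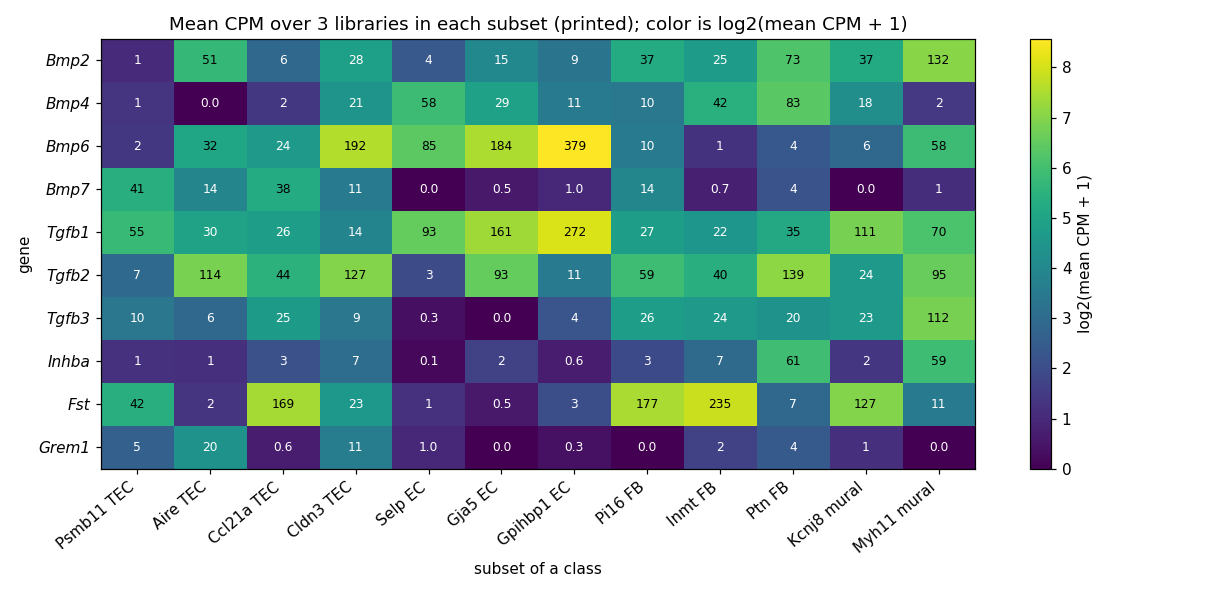
Mean CPM over the libraries in each of 12 subsets (columns) for the 10 genes (rows), printed in the cells, with color on a log2(mean CPM + 1) scale. Bmp6 peaks in Gpihbp1 EC at 379 CPM, Fst in Inmt FB at 235 CPM and Bmp2 in Myh11 mural cells at 132 CPM.

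In EC, 5 of the 10 genes could be tested, and the subsets parted by vessel type. Gpihbp1 EC carried more Bmp6 (383, 372 and 382 CPM) and Tgfb1 (228, 322 and 267 CPM) than the others, by 1.58 ± 0.24 and 1.09 ± 0.15 (adjusted p = 7.1e-05 and 3.56e-05), and 3 of 5 genes differed where 17.3% of all genes did. Selp EC, in contrast, carried more Bmp4, at 52.9, 69.4 and 50.7 CPM against 15.8, 10.0 and 5.86 in Gpihbp1 EC. This difference was 2.13 ± 0.25 (adjusted p = 2.68e-06), and Bmp6, Tgfb1 and Tgfb2 were lower there, so that 4 of 5 differed (25.1% of all genes). Gja5 EC were set apart by Tgfb2, at 83.6, 36.2 and 158 CPM, where Selp EC had 6.10, 1.56 and 0.889. Tgfb2 was higher by 4.30 ± 0.39 (adjusted p = 3.41e-07), the 1 gene of 5 that differed (11.3% of all genes), from 19, 26 and 69 barcodes. These 8 calls passed in all alternatives for subsets, including each of those without 1 library.

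In FB all 10 genes were tested, and Inhba and Fst lay in opposite subsets. Ptn FB held Inhba at 64.9, 72.5 and 44.6 CPM, whereas Pi16 FB held 5.21, 0 and 3.26 and Inmt FB 2.20, 12.9 and 5.23. Fst ran the other way, with 133, 221 and 177 CPM in Pi16 FB, 177, 291 and 238 in Inmt FB, and 8.11, 9.73 and 1.67 in Ptn FB. For both genes the 3 values of Ptn FB did not overlap those of either other subset. Ptn FB exceeded the other subsets in Inhba by 3.68 ± 0.31 (adjusted p = 4.16e-06) and fell below them in Fst (-5.24 ± 0.37, adjusted p = 1.03e-06). Both passed in all alternatives. Ptn FB were also higher in Bmp4 (55.8, 116 and 76.4 CPM, difference 1.85 ± 0.27), Tgfb2 (109, 174 and 134 CPM, 1.56 ± 0.20) and Bmp2 (56.8, 76.4 and 85.1 CPM, 1.19 ± 0.20), with adjusted p at most 8.98e-04. FB outside the subsets, not part of this comparison, held 21.5, 92.6 and 77.7 CPM of Bmp4, slightly more than Ptn FB in wild type male. With Grem1, 5 genes were higher and 1 lower in Ptn FB (21.9% of all genes differed). The Grem1 call was lost with the library block left out and could be tested in 7 alternatives, and its 6.20, 1.08 and 5.68 CPM lay below droplets without a cell.

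Pi16 FB differed in 6 genes (19.5% of all genes) and Inmt FB in 5 (4.05%). Besides more Fst (2.30 ± 0.28, adjusted p = 1.08e-04), Pi16 FB had more Bmp7 (9.38, 14.8 and 18.5 CPM, 3.23 ± 0.58, adjusted p = 0.0018), the highest mean Bmp7 among subsets outside TEC. Bmp6 was also higher and Inhba lower, the former not with the library block left out and the latter not without wild type male. At 18.8, 4.22 and 7.60 CPM, Bmp6 in Pi16 FB lay below droplets without a cell in every library. For Bmp7, droplets without a cell held 10.7, 13.4 and 14.002 CPM. Pi16 FB lay below this in Foxn1Lin female, slightly above it in Foxn1Lin male and above it in wild type male. Pi16 FB had less Bmp4, at 10.7, 2.11 and 16.3 CPM. They held 0 Grem1 UMIs in all 3 libraries, which allows up to 0.782, 6.33 and 3.26 CPM. Inmt FB had the highest mean Fst of the 12 subsets (difference from the other FB 2.94 ± 0.28, adjusted p = 9.72e-05). They had less Tgfb2, Bmp2, Bmp7 and Bmp6 than the other FB, calls that were each lost without at least 1 library. Without any 1 of the libraries, 2 genes differed in Inmt FB.

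In mural cells, too, Inhba and Fst were high in different subsets. Myh11 mural cells held Inhba at 74.9, 49.9 and 51.6 CPM, where Kcnj8 mural cells had 2, 0 and 0 UMIs (4.72, 0 and 0 CPM). Fst was 264, 87.65 and 27.9 CPM in Kcnj8 mural cells against 21.3, 9.13 and 2.49 in Myh11 mural cells, with no overlap, the value of wild type male under the 48.5 CPM of droplets without a cell. Mural cells outside both subsets held 139.8, 169.8 and 25.4 CPM of Fst. The fitted Fst difference was 3.25 ± 0.29 (adjusted p = 2.73e-04). Bmp2 (141, 126 and 130 CPM), Tgfb3 (128, 97.7 and 110 CPM), Tgfb2 (73.2, 91.8 and 121 CPM) and Bmp6 (78.3, 37.0 and 57.9 CPM) were all higher in Myh11 mural cells, by 2.06 to 3.22 on the log2 scale (adjusted p at most 0.0071). For Bmp6, droplets without a cell held 61.4, 36.2 and 51.4 CPM, close to Myh11 mural cells in the male libraries. In all, 6 of 7 genes tested differed, where 18.8% of all genes did, and only Tgfb1 did not pass (0.50 ± 0.25, adjusted p = 0.228). The filter on low counts admits a gene for its level in either subset alone, as with Inhba in Myh11 mural cells. This count is therefore not independent of the filter. The Kcnj8 subset was small, at 102, 41 and 40 barcodes.

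**Figure D4:**
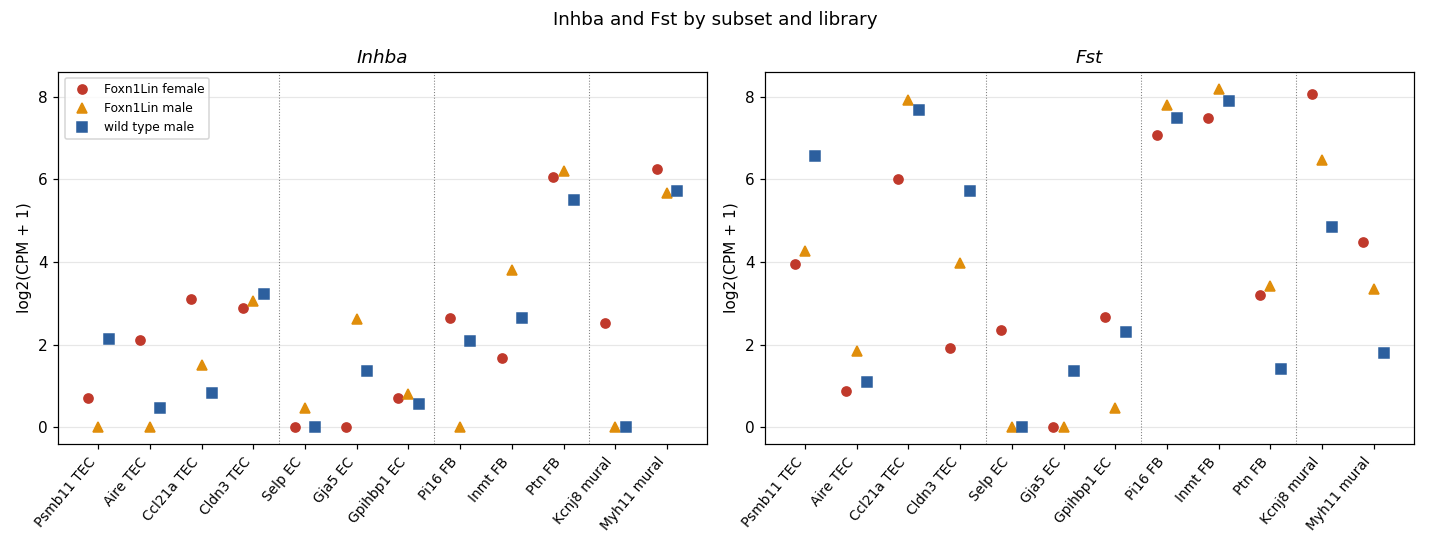
Levels of Inhba (left) and Fst (right) as log2(CPM + 1) in the 12 subsets (horizontal axes), 1 point per library, with dotted lines between TEC, EC, FB and mural subsets. Inhba is high in Ptn FB and Myh11 mural cells (44.6 to 74.9 CPM), the subsets of their classes where Fst is low (1.67 to 21.3 CPM).

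In TEC, 9 genes were tested. Ccl21a TEC carried Fst at 63.1, 240 and 203 CPM and Aire TEC at 0.827, 2.57 and 1.14, and the ranges were far apart. Fst was higher in Ccl21a TEC by 3.99 ± 0.38 (adjusted p = 1.65e-04) and lower in Aire TEC (-5.63 ± 0.63, adjusted p = 6.18e-05). TEC that met none of the subset rules held 49.8, 218 and 176 CPM, and with 111, 712 and 1264 of the 163, 994 and 1967 Fst UMIs of TEC they held most of this transcript. Ccl21a TEC were also higher in Bmp7 and Tgfb3, making 3 of 9 genes (16.2% of all genes), but both of these calls were lost without either male library. Aire TEC were higher in Bmp2 (33.9, 66.8 and 52.6 CPM, 3.07 ± 0.54, adjusted p = 0.0011), Tgfb2 (168, 93.8 and 81.4 CPM, 1.53 ± 0.22, adjusted p = 3.38e-04) and Grem1 (18.2, 25.7 and 16.3 CPM, 2.88 ± 0.76, adjusted p = 0.0104). TEC outside the subsets held 26.9, 2.14 and 26.7 CPM of Grem1, more than Aire TEC in Foxn1Lin female and wild type male. Their Bmp2 was 49.4, 8.27 and 13.8 CPM, above Aire TEC in Foxn1Lin female. Aire TEC held 0 Bmp4 UMIs in all 3 libraries, which allows up to 2.48, 3.86 and 1.14 CPM. In Aire TEC 6 of 9 genes differed, where 45.1% of all genes did. Without wild type male 3 genes differed, since the calls of Grem1, Bmp4 and Bmp7 were lost, that of Bmp7 also without either other library.

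Cldn3 TEC had the highest Bmp6 of the 4 TEC subsets. They held 128, 207 and 240 CPM of Bmp6, where EC as a whole held 316, 211 and 245 and Ccl21a TEC held 35.4, 12.9 and 23.5. The difference from the other subsets was 4.03 ± 0.28 (adjusted p = 1.3e-05). TEC outside the subsets held 62.8, 38.6 and 64.0 CPM of Bmp6, with 140, 126 and 460 UMIs against 139, 227 and 1278 in Cldn3 TEC. Bmp4 at 6.43, 20.1 and 35.7 CPM and Tgfb2 at 132, 128 and 120 CPM were also higher in them, although Bmp4 stood at the level of droplets without a cell in Foxn1Lin female and below it in Foxn1Lin male. Mean Bmp4 was 1.49 CPM in Psmb11, 0 in Aire and 1.62 in Ccl21a TEC. This gene therefore passed the filter on low counts through Cldn3 TEC. Bmp7 and Tgfb1 were lower in Cldn3 TEC, so that 5 of 9 genes differed (21% of all genes). Of these, Bmp4, Bmp7 and Tgfb1 did not pass without wild type male. Psmb11 TEC, with 63, 9 and 54 barcodes (the 9 of Foxn1Lin male not entering the test), were nearly free of Bmp6 (3.15, 0 and 1.68 CPM) and Bmp2 (3.15, 0 and 0 CPM). Bmp7 at 28.3, 40.8 and 53.2 CPM and Tgfb1 at 36.5, 81.7 and 46.5 CPM were higher there, by 0.95 ± 0.24 and 1.17 ± 0.25 (adjusted p = 0.0191 and 0.0075), and 6 of 9 genes differed (23.4% of all genes). Both calls were lost without Foxn1Lin female and without wild type male. In each of those fits Psmb11 TEC were 1 sum, assumed to vary like the other subsets. Droplets without a cell held 70.3, 80.8 and 31.5 CPM of Tgfb1. Psmb11 TEC lay below this in Foxn1Lin female, at it in Foxn1Lin male and above it in wild type male. Hematopoietic markers were highest in TEC of all classes, and when barcodes with a Ptprc UMI were left out, the call of Fst in Psmb11 TEC was lost while the other calls in TEC subsets that could be tested passed.

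The sequences just upstream of the transcription start are given for Inhba, Bmp4 and Tgfb2, since all 3 were higher in Ptn FB than in the mean of the other FB subsets. The RefSeq table of GRCm38.p6 used here held 6 of the 10 genes (Bmp4, Bmp6, Tgfb1, Tgfb2, Inhba and Grem1). Shown are the 200 bases before the start, 5′ to 3′ on the strand of the gene, at chr13:16011651-16011850 (plus strand) for Inhba, chr14:46390670-46390869 (minus strand) for Bmp4 and chr1:186705990-186706189 (minus strand) for Tgfb2. Capitals mark TATAAA, the core of a TATA box, or TTTATA on the other strand.
Inhba: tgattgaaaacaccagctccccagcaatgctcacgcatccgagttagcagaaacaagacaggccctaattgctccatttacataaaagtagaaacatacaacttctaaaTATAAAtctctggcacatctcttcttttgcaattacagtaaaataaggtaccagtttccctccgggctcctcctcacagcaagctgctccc
Bmp4: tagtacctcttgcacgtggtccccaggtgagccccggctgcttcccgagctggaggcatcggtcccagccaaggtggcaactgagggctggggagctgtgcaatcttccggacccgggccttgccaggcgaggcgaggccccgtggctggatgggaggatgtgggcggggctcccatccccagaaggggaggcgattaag
Tgfb2: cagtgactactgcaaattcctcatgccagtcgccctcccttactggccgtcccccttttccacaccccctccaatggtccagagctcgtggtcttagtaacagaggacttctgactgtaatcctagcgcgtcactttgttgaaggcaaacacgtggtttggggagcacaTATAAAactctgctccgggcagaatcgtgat
Inhba and Tgfb2 each held these letters or their reverse complement once, starting 91 and 31 bases before the start, and Bmp4 did not. Read on both strands, these letters occurred in 9.96% of 32851 promoters of the same length. The SMAD binding letters CAGAC and GTCTG, present in 35.5% of them, and the GC-rich SMAD letters GGCGCC, present in 8.43%, were not in these 3 windows. With at most 1 match in a window, none overlapped another. A match of letters is a description and not a binding site.

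Receptors and other genes of the pathways were taken as fixed lists and counted by the same rule, higher in 1 class than in each other class. Of 13 receptor genes, 2 were higher in EC, 1 in FB, 1 in mural cells, 1 in mesothelial cells and 0 in TEC, beside the shares of all genes given above for this rule (7.23%, 2.68%, 4.38%, 3.16% and 10.7% in the same order). Those of EC were Acvrl1, the endothelial type I receptor for BMP9 and BMP10, at 128 ± 39.0 CPM (SD over 3 libraries, which are also the 3 groups), and its co-receptor Eng at 798 ± 3.89 CPM. Tgfbr1, the TGF-beta type I receptor, was higher in FB (135 ± 12.6 CPM), Acvr2b, an activin type II receptor, in mural cells (16.7 ± 1.09 CPM), and Bmpr1b, a BMP type I receptor, in mesothelial cells (105 ± 46.3 CPM, n = 2).

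Of 10 other binding proteins, Fstl1 (733 ± 218 CPM) and Bmper (49.4 ± 15.0 CPM) were higher in FB, Chrdl1 (130 ± 9.59 CPM) and Twsg1 (386 ± 29.9 CPM) in mesothelial cells, and Sostdc1 (11.2 ± 8.14 CPM) in TEC. Of 10 genes of TGF-beta latency and activation, Fbn1, whose fibrillin microfibrils hold latent TGF-beta, was higher in FB (703 ± 200.2 CPM) and Itgb6, an epithelial integrin subunit that releases it, in TEC (15.2 ± 2.02 CPM). Of 16 further ligand genes, 11 passed the filter. Bmp5 (55.4 ± 4.46 CPM) and Gdf11 (26.6 ± 3.04 CPM) were higher in mural cells, Inhbb, the activin B subunit, in EC (68.9 ± 14.5 CPM), Gdf10 in FB (78.5 ± 13.3 CPM), Gdf2, which encodes BMP9, in mesothelial cells (8.46 ± 0.48 CPM, n = 2) and Mstn in TEC (3.47 ± 2.54 CPM). Gdf2 and Mstn are at low levels. The Gdf2 value rests on 340 and 36 mesothelial barcodes, and its SD does not show counting error.

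Among 8 SMAD genes, Smad1 was higher in EC (234 ± 51.4 CPM) and Smad3 in FB (174 ± 53.7 CPM). Among 10 target genes, Id1, a BMP target, was higher in EC (776 ± 321 CPM), Pmepa1, a TGF-beta target, in FB (185 ± 29.1 CPM) and Ccn2 in mural cells (168 ± 85.8 CPM).

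The genes most alike in pattern were ranked by Pearson's r of log2(CPM + 1) over the 14 class sums, which share libraries and depth, so r is a description. Tgfb3 went most closely with Fgf1, Mark1 and Ccdc141 (r = 0.97, 0.96 and 0.96), Tgfb1 with Gnai2, Car4 and Rtl8a (0.97, 0.96 and 0.96) and Inhba with Pla2r1, Sox5 and Lhfp (0.97, 0.97 and 0.95). Bmp2 was nearest to Speg, Susd2 and Il34 (0.97, 0.96 and 0.96), Bmp6 to Mgll, Lmo7 and Dgkz (0.95, 0.94 and 0.94) and Bmp7 to Snx8, Atp6v0e and Pafah1b3 (0.97, 0.96 and 0.95). For Bmp4 the nearest were Ern1, Dnajc1 and Sec63 (0.93, 0.92 and 0.92), for Grem1 St3gal3, Anxa4 and Stard7 (0.91, 0.90 and 0.90), for Tgfb2 Rnf150, Frk and Lrig1 (0.91, 0.90 and 0.89) and for Fst Mmgt2 and Wdr60 (0.89 and 0.89).

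Libraries of different genotype or sex could not be compared by a test, with 1 library in each group, and genotype, sex and capture cannot be told apart. Where libraries differed in a class, the makeup of the class could differ too. Fst in FB was highest in Foxn1Lin female (109, 57.6 and 43.2 CPM), but within Pi16 FB and Inmt FB that library had the lowest level of the 3. In FB outside the subsets Fst was 102, 79.5 and 58.0 CPM, again highest in Foxn1Lin female. Ptn FB, low in Fst, were 323 of 1852 FB barcodes in Foxn1Lin female, 535 of 864 in Foxn1Lin male and 956 of 1709 in wild type male. Bmp4 and Inhba in FB were lowest in Foxn1Lin female (22.4 and 15.9 CPM). Within Ptn FB, Bmp4 was still lowest there (55.8 CPM), whereas Inhba (64.9 CPM) lay between both male libraries. In FB outside the subsets Inhba was 10.8, 19.6 and 15.4 CPM, lowest in Foxn1Lin female, as it was in Inmt FB but not in Pi16 FB. Fst in TEC was lowest in Foxn1Lin female, and it was so within Ccl21a TEC and in TEC outside the subsets, while in Aire TEC the values rest on 1, 2 and 3 UMIs. Tgfb2 in EC was 21.0, 5.25 and 36.1 CPM, and Gja5 EC, rich in Tgfb2, were 19 of 1883, 26 of 823 and 69 of 862 EC barcodes, which is not the same order. Inside Gja5 EC the level was 83.6, 36.2 and 158 CPM, the first 2 values from 8 and 7 UMIs with overlapping counting intervals, and in EC outside the subsets it was 44.3, 10.7 and 51.3 CPM.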

How the data were processed

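Single-cell RNA-seq libraries of 3 pools of thymic stroma were analysed. The deposited counts are whole numbers of UMIs for each gene in each barcode, which the authors made with Cell Ranger (7.0.1 in the header of the called matrices, 7.01 in the submitters' processing notes) on the GRCm38 build with reporter sequences added, reads in introns included. UMI counts per library were 53366016, 33386621 and 61258534 (median 4675, 7431 and 7947 per called barcode). The deposited library summaries were not used.

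The 10 genes, the marker thresholds and the lists were chosen with earlier results of these data known. Barcodes were classed by marker UMIs, without a filter on quality or doublets. Scrublet in scanpy 1.11.5, left to itself, marked 0, 15 and 1 barcodes. Subset thresholds were 2 UMIs, with 3 for Ptn and 10 for Ccl21a. Sums with fewer than 10 barcodes were left out. CPM is a gene's share of the UMIs of a sum times 1e6. Levels were compared within a gene and not between genes, since reads in introns were counted. Exact Poisson and Clopper-Pearson intervals at 95% (scipy 1.17.1) cover counting error only, and 0 UMIs were read as up to 3. For shares of barcodes with a UMI, each barcode was thinned to 2000 UMIs and shallower ones left out. Droplets without a cell were uncalled barcodes of 124 to 493, 22 to 87 and 26 to 103 UMIs.

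Raw counts summed per library and class, or subset, were tested in edgeR 4.0.16 (quasi-likelihood, TMM, filterByExpr, library as a block) in R 4.3.3, with Benjamini-Hochberg adjustment over all genes tested (17598 between classes) at 0.05. The tests were checked on simulated data. Since a library is 1 pool, p-values measure the spread of a class difference over 3 libraries. Class markers served only to check the classes. All 10 genes are named. Of the other pathway genes, at most 2 per list and class were named, those called higher there with the highest mean CPM, and for patterns the 3 genes with the highest r among those with a mean of at least 10 CPM, of which 1 is not reported here. Alternatives were no block, each library left out, RLE size factors, DESeq2 1.42.0, no filter on low counts, other class thresholds, barcodes with Ptprc UMIs, low quality or high Scrublet scores left out, other thinning and, chosen after the data were seen, the highest barcode of each gene left out.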

Additional observations from a re-analysis of the deposited data

Results flagged for a closer look

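In 3 genes the order of the leading class and the next one turned between libraries, with 95% counting intervals on opposite sides of equality. With 1 library per group the differences between libraries were not tested. Fst was lower in TEC than in FB in Foxn1Lin female (log2 ratio -2.12) and higher in Foxn1Lin male and wild type male (1.42 and 1.32). Inhba was higher in mural cells than in FB in Foxn1Lin female (1.60) and lower in Foxn1Lin male (-0.35), with 0.26 and an interval that spans 0 in wild type male. Bmp4 was lower in FB than in mesothelial cells in Foxn1Lin female (-0.60) and higher in wild type male (0.70), where 36 mesothelial barcodes gave 20 UMIs.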

How the results depend on the processing

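Class and subset differences have 3 libraries at most, and a class or subset of few barcodes limits what could be called. The 10 leading-class differences kept direction and side of the threshold in 114 of 130 refits. The count of genes highest in mural cells was 1 and became 0 with no replicate block, without barcodes with a Ptprc UMI, with the cell quality filter and without the highest barcode of each gene, and 0 to 2 over the fits that leave out a library. The lost call was Bmp2, whose excess over FB missed the threshold in 6 refits (0.75 to 0.88, adjusted p 0.058 to 0.23). With no low-count filter 1 gene was highest in TEC (Bmp7, with 1.58 over mesothelial cells, adjusted p = 0.043). Without barcodes with a Ptprc UMI, 2 genes differed in Gja5 EC. With no replicate block, 1 gene differed in Inmt FB, and no other count moved by over 1.5 times.

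When each library was left out in turn, 6 to 10 genes differed between TEC and EC, 2 to 4 between TEC and mesothelial cells, 3 to 6 between FB and mural cells and 0 to 2 between FB and mesothelial cells, each lowest without wild type male. In subsets these ranges were 2 to 6 for Psmb11 TEC, 3 to 6 for Aire TEC, 1 to 3 for Ccl21a TEC, 2 to 5 for Cldn3 TEC and 2 in each fit for Inmt FB. Directions that were not called turned as follows. Bmp4, FB minus mesothelial cells, ran from -0.31 (without wild type male) to 1.06, Inhba, mural cells minus FB, from -0.011 (without Foxn1Lin female) to 0.86, Fst, TEC minus FB, from -0.29 (without Foxn1Lin male), with -0.19 without wild type male, to 1.18 (without Foxn1Lin female, adjusted p = 0.042), and Grem1, TEC minus mural cells, from -0.084 (without Foxn1Lin female) to 1.92. Grem1 passed with lower class thresholds (2.71, adjusted p = 0.016). Without Foxn1Lin female or wild type male, mesothelial cells and Psmb11 TEC are 1 sum each, assumed to vary like the other classes or subsets. The cause of these changes was not tested. Of all calls, 37 of 64 between classes and 31 of 51 between subsets passed in every alternative that tested them, and 0 turned direction. Of 840 CPM values recomputed on other barcodes, 64 moved by more than the counting interval, and thinning moved 194 of 280 shares.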
